A study of Saccharomyces cerevisiae with 4 samples.

Results

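Nuclear genes of budding yeast (Saccharomyces cerevisiae) that encode the respiratory chain, ATP synthase and the carriers that serve it were followed in an experiment on Mex67, the receptor that takes messenger RNA out of the nucleus. The set holds 46 named genes of 5583 named on the arrays. Its members were chosen by gene symbol from their known roles, with earlier results of these data known. By role they fall into 7 NADH and succinate dehydrogenase genes, 9 genes of complex III, 2 cytochrome c genes, 9 genes of complex IV, 13 genes of ATP synthase, 2 genes of its inhibitor proteins and 4 genes of inner-membrane carriers. Each of the 4 arrays compared RNA precipitated with Mex67 carrying the zz tag (a protein A fragment that binds antibodies) with RNA precipitated with the zz tag alone. The arrays form 1 group. The labels state no strain, genotype, growth medium or temperature and do not say whether each array had its own culture or precipitation, so the spread between them may be technical. The comparison asks which RNAs come down with the export receptor beyond those that the tag brings down.

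In oxidative phosphorylation, electrons from NADH and succinate pass through the inner mitochondrial membrane by way of ubiquinone, complex III, cytochrome c and complex IV to oxygen, and the proton gradient built on the way drives ATP synthase. Budding yeast has no proton-pumping complex I and uses single-subunit NADH dehydrogenases in its place. The core subunits of complexes III and IV that mitochondrial DNA encodes are translated inside the organelle. The genes described here are transcribed in the nucleus, so their mRNAs must leave it to be translated and the proteins then enter the mitochondrion. In fermenting cells many of these genes are repressed by glucose, and several have isoforms used when oxygen is scarce.

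All values are log2 ratios after subtraction of the array's median over genes, so 0 is the median gene and 1 is 2-fold above it. On replicates 1, 3 and 4 the zzMex67 precipitate is likely the numerator, since it stands first in the titles and is the channel 1 sample. The direction is not settled by the files, and ratios are only described as higher or lower. Replicate 2 carries the precipitates in the opposite channels, but its title also names zzMex67 first. For this array the title and the channel labels thus point opposite ways, and turning it follows the channel labels. Its values are given as deposited unless called turned, and turning only changes their sign. Replicate 1 was run on one platform and replicates 2, 3 and 4 on another, and levels on the 2 platforms were centred separately. The median spot log10 ratio was between -0.251 and 0.643 before centring, and the SD over genes was between 1.44 and 1.83 after it.

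Messenger RNAs of this set were measured at least as often as other genes on these arrays, and 44 of the 46 had a value somewhere. On replicate 1, 40 of 46 (87.0%) had a value, against 79.0% of all genes. On replicates 2, 3 and 4 it was 8 (18.6%), 18 (41.9%) and 20 (46.5%) of the 43 printed there, against 9.46%, 41.2% and 43.7% of all genes. ATP18, TIM11 and STF1 had no named spot on the second platform. INH1 and STF1, whose products inhibit ATP hydrolysis by the F1 part of ATP synthase, had no value on any array. A total of 12 members were measured on 3 or more arrays, and only COX9 and ATP2 on all 4. Why spots lack a value is not stated, and the files hold no intensities, so how bright each gene was cannot be stated.

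**Figure D1:**
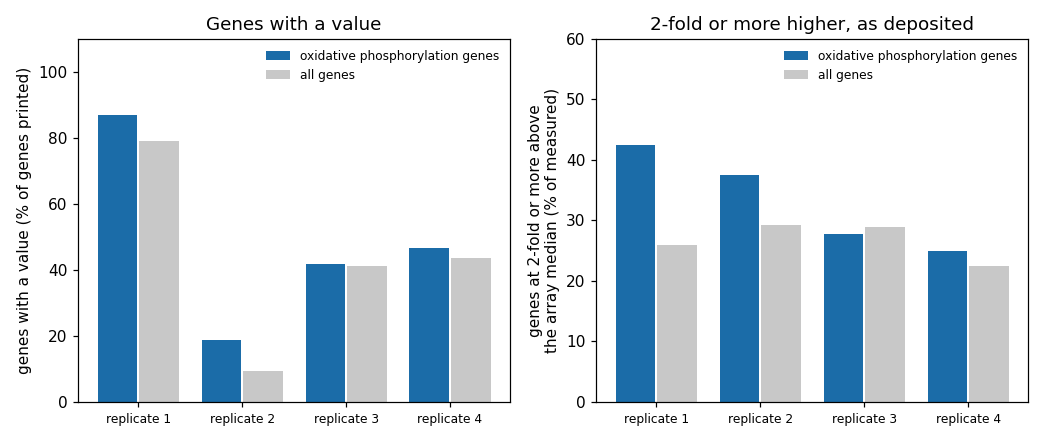
Left, the share of printed genes with a value (%) on each array, for the oxidative phosphorylation genes (blue) and all genes (grey). Right, the share of measured genes at 2-fold or more above the array median (%), as deposited. The blue bar is at 42.5% on replicate 1 and at 27.8% and 25% on replicates 3 and 4.

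As a whole the set lay above the array median on replicate 1 and near it on replicates 3 and 4. Its medians were 0.67 (SD over members 1.76, 40 genes), -0.15 (SD 1.47, 18 genes) and 0.050 (SD 1.04, 20 genes) on replicates 1, 3 and 4, where the median of all genes is 0. On replicate 2 it was 0.31 (SD 2.95, 8 genes) as deposited. Above the array median, where 50.0% of all genes lie, were 24 of 40, 5 of 8 (as deposited), 7 of 18 and 11 of 20 members on replicates 1 to 4. On replicate 1, 17 of 40 members (42.5%) were at 2-fold or more above the array median, against 26.0% of all genes, and 5 (12.5%) were at 2-fold or more below it, against 21.1%. On replicate 3 the higher members numbered 5 of 18 (27.8%), against 28.9% of all genes, and the lower ones 3 (16.7%), against 21.9%. On replicate 4 there were 5 of 20 higher (25%), against 22.5%, and 1 lower (5.00%), against 17.4%. The higher shares on replicates 3 and 4 are thus near those of all genes. On replicate 2, as deposited, 3 of 8 lay at 2-fold or more on each side, against 29.2% higher and 27.7% lower among all genes. These are descriptions of single arrays, with no replicate on the first platform.

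The 3 arrays with zzMex67 in channel 1 placed the dehydrogenase genes lowest by the average of class medians and did not order the other classes in the same way. The class medians on replicates 1, 3 and 4 were -0.11, -0.35 and -0.37 for the dehydrogenases (7, 2 and 4 genes) and 0.39, 0.65 and -0.029 for complex III (9, 4 and 4 genes). For complex IV they were 1.13, -0.15 and 1.55 (8, 4 and 2 genes), and for ATP synthase 0.95, -0.31 and 0.68 (11, 7 and 5 genes). The dehydrogenase median was below those of complex III, complex IV and ATP synthase on each of these arrays, while that of cytochrome c was lower still on replicate 1 (-0.30). Class means did not keep this order, with 0.35 for the dehydrogenases and 0.16 for complex III on replicate 1, and -0.35 for the dehydrogenases and -0.55 for complex IV on replicate 3. The difference of the dehydrogenases from complex III was -0.61 ± 0.35, from complex IV -1.12 ± 0.87 and from ATP synthase -0.71 ± 0.59 (mean ± SD, n = 3 arrays). On replicate 3, where only 2 dehydrogenase genes were measured, the differences from complex IV and ATP synthase were -0.20 and -0.035. Between complex III, complex IV and ATP synthase the order changed from array to array and their averages over the arrays differed by less than the largest SD over arrays among them (0.34 ± 0.34, 0.84 ± 0.88 and 0.44 ± 0.66). No test was made over the members of a class. NDE2, the only dehydrogenase gene on all 3 arrays, had a mean of 0.80 there, so the low class median rests on genes measured on 1 or 2 of them.

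**Figure D2:**
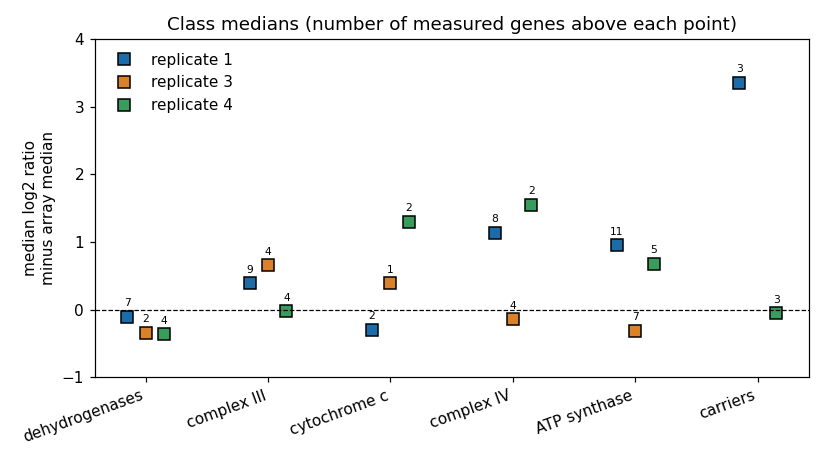
Median log2 ratio minus the array median (vertical axis) for each class (horizontal axis) on replicates 1, 3 and 4, with the number of measured genes above each point. The dehydrogenase medians lie between -0.37 and -0.11, and complex IV and ATP synthase lie above 0 on replicates 1 and 4 and below it on replicate 3.

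Among the dehydrogenases, the NADH enzymes varied from array to array and succinate dehydrogenase stayed mostly below the median. NDE2 (YDL085W), an NADH dehydrogenase on the outer face of the inner membrane, had 0.97, -0.27 and 1.70 on replicates 1, 3 and 4. It was high on 2 arrays and slightly low on the third, and centring runs of spots gives 2.75, -1.58 and 1.49. NDE1 (YMR145C), its paralog, had the highest value of the class on replicate 1, 1.43, and -1.13 on replicate 4, so it changed sides. The 2 spots of NDE1 on replicate 1 were 0.59 and 2.26. NDI1 (YML120C), which oxidises NADH on the matrix side, had -0.11 and -0.57 on the same arrays. For succinate dehydrogenase, which links the citric acid cycle to the chain, the flavoprotein gene SDH1 (YKL148C) had -0.34 and -0.16 on replicates 1 and 4. The iron-sulfur subunit gene SDH2 (YLL041C), the lowest of the class on replicate 1, had -0.41 there. Of the membrane anchor genes, SDH3 (YKL141W) had -0.29 and -0.42 on replicates 1 and 3, and SDH4 (YDR178W) had 1.18 on replicate 1. SDH4 was the only member of the enzyme above an array median, and no dehydrogenase gene was measured on replicate 2.

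Complex III passes electrons from ubiquinol to cytochrome c, and its genes held the lowest value of the set on replicate 1. COR1 (YBL045C), a core protein gene, had -3.20 there, with 99.0% of genes higher, and -0.20 on replicate 4. With each run of 400 neighbouring spots centred on its own median, COR1 had -1.96 on replicate 1. QCR2 (YPR191W), the other core protein gene, had -0.57 and 1.24 on replicates 1 and 3, the latter 0.23 with runs of spots centred. The 2 core genes therefore lay on the same side on replicate 1 but far apart. Among the genes of the catalytic subunits, CYT1 (YOR065W), the cytochrome c1 gene, had 0.39, -0.52 and -0.0037 on replicates 1, 3 and 4, a spread around the median. RIP1 (YEL024W), the Rieske iron-sulfur protein gene, had 1.90 and 0.073 on replicates 1 and 3.

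Among the small accessory subunits of complex III, QCR10 (YHR001W-A) had 1.24 and 3.18 on replicates 1 and 3 and 1.76 on replicate 2, where turning the sign places it on the low side. It was measured through 1 spot on replicates 2 and 3, and centring runs of spots brings the value on replicate 3 to 1.08. QCR6 (YFR033C), the gene of an acidic subunit, had -0.46 and 0.23 on replicates 1 and 4 and -1.02 on replicate 2, where its 2 spots were -1.89 and -0.15. QCR8 (YJL166W) had the highest value of the complex on replicate 1, 2.11. QCR9 (YGR183C) had 0.39 there, and QCR7 (YDR529C) had -0.37 and -0.055 on replicates 1 and 4. Centring runs of spots gives QCR7 0.87 and 0.14 on these arrays, so it changes sides on both. On replicate 4 the 4 measured genes of complex III lay within -0.20 and 0.23, but centring runs of spots brings QCR6 to -1.40 there.

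Cytochrome c, the soluble carrier between complexes III and IV, is made from CYC1 (YJR048W, the main form in air) and CYC7 (YEL039C, the form favoured when oxygen is scarce). CYC1 had -0.38 and 1.95 on replicates 1 and 4 and 2.10 on replicate 2, which becomes low once turned. The 2 spots of CYC1 on replicate 4 were 1.39 and 2.50. CYC7 had -0.21, 0.39 and 0.63 on replicates 1, 3 and 4, a narrower range. Both isoforms were below the median on replicate 1 and above it on replicate 4, but CYC7 had 0.89 on replicate 1 with runs of spots centred. They are similar in sequence, and the probes may not separate them.

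Complex IV, which hands the electrons to oxygen, had 5 of its 8 measured genes at 2-fold or more above the median on replicate 1 and 0 of 4 on replicate 3, against 26.0% and 28.9% of all genes, and 1 of 2 on replicate 4, against 22.5%. COX5A (YNL052W), the aerobic isoform of subunit V, had the highest value of the complex on replicate 1, 2.27, and -4.20 on replicate 2, the lowest value of any gene on that array. Turning replicate 2, as its channel labels ask, gives the same size with a positive sign, on the same side as replicate 1. Its 2 spots on replicate 2 were -4.27 and -4.14. COX5B (YIL111W), the hypoxic isoform of that subunit, had 1.18 and 3.00 on replicates 1 and 4, above the median on both. Its 2 spots on replicate 4 were 2.85 and 3.15, and 2.56% of genes were higher. COX9 (YDL067C), a small subunit gene measured on every array, had -0.58, 0.17, -0.086 and 0.10 on replicates 1 to 4, close to the median gene. With runs of spots centred it had 0.52, -0.63, -0.081 and 0.41. COX6 (YHR051W) had 1.18 and -1.84 on replicates 1 and 3, and COX13 (YGL191W) had 1.38 and -0.047, so both were higher on the first of these arrays. With runs of spots centred, COX6 and COX13 had -0.00076 and 0.20 on replicate 1 and -1.59 and 0.27 on replicate 3. COX13 was then not higher on replicate 1. COX8 (YLR395C) and COX7 (YMR256C) had 1.09 and 0.36 on replicate 1. COX12 (YLR038C) had the lowest value of the complex there, -1.48. COX4 (YGL187C) was measured on replicate 3 alone and had -0.21.

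**Figure D3:**
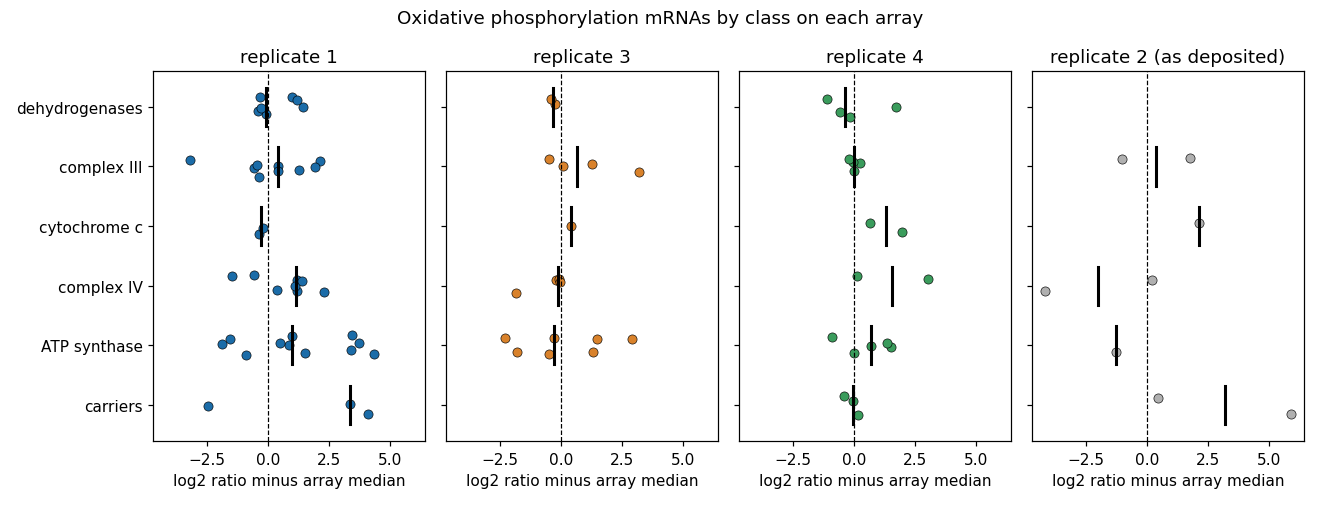
Log2 ratio minus the array median (horizontal axis) of every measured oxidative phosphorylation gene, as points by class, on replicates 1, 3, 4 and 2, the last as deposited. Vertical bars are class medians and the dashed line is the median gene. Points of complex IV run between -1.48 and 2.27 on replicate 1, and those of complex III lie within -0.20 and 0.23 on replicate 4.

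ATP synthase genes spread more widely than any other class with 4 or more measured genes on replicates 1 and 3, and 5 of 11 were at 2-fold or more above the median on replicate 1, against 26.0% of all genes. On replicates 3 and 4 such genes numbered 3 of 7 and 2 of 5, against 28.9% and 22.5%. The enzyme consists of the F1 head in the matrix, which makes ATP, a peripheral stalk that holds the head still, and subunits in the membrane. In the F1 head, ATP2 (YJR121W), the catalytic beta subunit gene, had 3.39, 1.47 and 0.68 on replicates 1, 3 and 4 and -1.28 on replicate 2. On replicate 3 its 2 spots were 1.47 and 1.47, and on replicate 4 they were 0.44 and 0.91. ATP2 was above the median on all 3 arrays of 1 channel order, and also on replicate 2 once turned. ATP1 (YBL099W), the alpha subunit gene whose product alternates with beta in the head, had -1.89, the lowest value of the class on replicate 1, and 0.00032 on replicate 4. With runs of spots centred, ATP1 had -0.11 on replicate 1. The 2 partner genes thus lay on opposite sides on the first array. The central stalk genes ATP3 (YBR039W, gamma), ATP15 (YPL271W, epsilon) and ATP16 (YDL004W, delta) were measured once each, with 1.52 on replicate 1 for ATP3 and -0.52 and -0.31 on replicate 3 for ATP15 and ATP16.

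All 4 peripheral stalk genes lay above the median on replicate 1, but not on the other arrays. ATP7 (YKL016C) had 4.35 there, 20.3-fold above the median gene and the highest value of the set on that array. ATP4 (YPL078C) had 3.43 on replicate 1 and -1.82 on replicate 3, where its 2 spots were -2.78 and -0.86. ATP5 (YDR298C), the gene of the subunit that confers oligomycin sensitivity, had 0.87, 2.91 and -0.92 on replicates 1, 3 and 4. Its 2 spots on replicate 3 were 0.96 and 4.86, the widest gap of any member. ATP14 (YLR295C) had 0.48, 1.31 and 1.52 on replicates 1, 3 and 4, with spots at 1.17 and 1.45 on replicate 3 and at 1.32 and 1.71 on replicate 4. ATP14 was thus on the high side on each array that measured it. Of the membrane subunit genes, ATP18 (YML081C-A) had 3.69 on replicate 1 from spots at 3.45 and 3.93. ATP20 (YPR020W) and TIM11 (YDR322C-A), whose products take part in joining the enzyme into dimers, had 0.95 and -0.93. ATP17 (YDR377W) had -1.59, -2.29 and 1.34 on replicates 1, 3 and 4, and centring runs of spots gives 0.20 on replicate 1.

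The carrier genes held extremes on replicates 1 and 2 and values near the median on replicate 4. MIR1 (YJR077C), which brings phosphate into the mitochondrion, had 4.06 on replicate 1, the highest of its class. AAC1 (YMR056C), a minor ADP/ATP carrier gene, had 3.35 there from spots at 3.05 and 3.65, and 0.13 on replicate 4. AAC3 (YBR085W), the ADP/ATP carrier gene used without oxygen and the lowest of the class on replicate 1, had -2.49 and -0.42 on replicates 1 and 4. On replicate 2 AAC3 had 5.89 from 1 spot, the highest value of any gene on that array, and -5.89 once turned. With runs of spots centred, AAC3 had -0.70 on replicate 1 and 3.72 on replicate 2, as deposited. PET9 (YBL030C), the main ADP/ATP carrier gene, had 0.44 on replicate 2 and -0.058 on replicate 4, where its 2 spots were -0.68 and 0.57. The ADP/ATP carrier genes AAC1, AAC3 and PET9 share much sequence, and the probes may not separate them. No carrier gene was measured on replicate 3.

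Of the 8 members with a value on all of replicates 1, 3 and 4, ATP2 and ATP14 (25%) were above the median on each, against 19.2% of the 725 genes measured there, and 0 were below it on each, against 9.24%. The share is near that of all genes. Means over these arrays, which join the 2 platforms by gene, were 1.84 ± 1.39 for ATP2, 1.10 ± 0.55 for ATP14, 0.95 ± 1.91 for ATP5 and 0.80 ± 1.00 for NDE2 (SD, n = 3). They were 0.27 ± 0.44 for CYC7, -0.045 ± 0.45 for CYT1, -0.19 ± 0.35 for COX9 and -0.85 ± 1.92 for ATP17 (SD, n = 3). Centring runs of 400 spots brings ATP2 to -0.46 on replicate 4 and ATP14 to -0.00041 on replicate 3 and so ends the shared side for both.

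**Figure D4:**
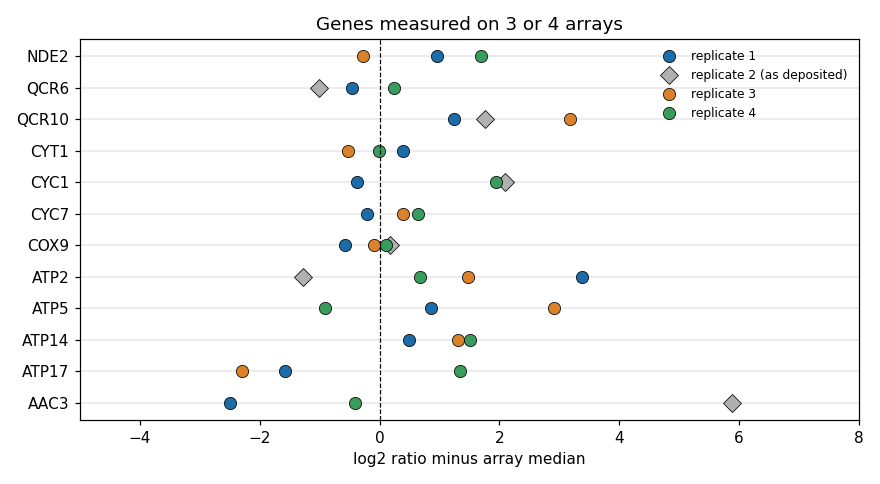
Log2 ratio minus the array median (horizontal axis) of the 12 genes measured on 3 or 4 arrays (rows), 1 point per array, with replicate 2 as deposited (grey diamonds). COX9 lies between -0.58 and 0.17 on all 4 arrays, and AAC3 runs between -2.49 and 5.89.

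In the test across the second platform, with the sign of replicate 2 turned, limma called 0 of 135 genes (0%) and 0 of the 2 members measured on all 3 arrays. At an unadjusted p under 0.05 there were 6 genes and 0 members. ATP2 had a mean of 1.14 ± 0.42 (SD, n = 3; limma SE 1.01, adjusted p = 0.750) and was on the high side on 3 of 3 arrays. With replicate 2 as deposited its mean was 0.29. COX9 had a mean of -0.053 ± 0.14 (SD, n = 3; limma SE 1.01, adjusted p = 0.980). Over the 135 genes the median of the means was 0.64, so ATP2 lay above it and COX9 below it. Of the 135 means, 99 were above 0. The medians of these genes were -0.15, 0.64 and 1.31 on replicates 2 (turned), 3 and 4. On replicate 4 ATP2, at 0.68, was thus below the median of the tested genes. Requiring 2 of the 3 arrays raised the members tested to 13, of which limma called 0, as it did of all 1212 genes (0%). There 57 of the 1212 genes had an unadjusted limma p under 0.05. Among the 13 members AAC3 alone did, with a mean of -3.15 over replicates 2 (turned) and 4 (limma, adjusted p = 0.791). This value rests on the single spot of replicate 2. Limma on replicates 1, 3 and 4 called 0 of 725 genes (0%) and 0 of 8 members, with 65 genes and 0 members at an unadjusted p under 0.05.

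Values of the same member on different arrays showed no steady relation. Across members, Pearson's r was 0.117 between replicates 1 and 3 (15 genes, against 0.060 over 1777 genes), 0.146 between 1 and 4 (19 genes, against 0.084 over 1912) and -0.496 between 3 and 4 (8 genes, against -0.018 over 923). Of the members measured on both arrays, 8 of 15, 10 of 19 and 4 of 8 were on the same side of the median. Over all genes the shares were 51.6%, 52.5% and 50.5%. Replicate 2 turned had r = 0.743 with replicate 1 over 7 members, 0.351 over the 5 without AAC3 and COX5A, and -0.029 over all 442 genes. As deposited, replicate 2 had r = 0.545 with replicate 3 over 3 members, against -0.012 over 222 genes. With replicate 4 it was -0.188 over 6 members, against 0.114 over 337 genes, and turning changes these signs. Points share their array, and genes are not independent replicates, so these are descriptions. The 2 spots of a member on an array differed by a median of 0.75, 0.46, 0.37 and 0.32 on replicates 1 to 4 (6, 4, 14 and 13 members), against 0.81, 0.53, 0.48 and 0.41 over all genes with 2 spots. The spots of 1, 1, 2 and 2 of these members differed by more than 1, against 39.7%, 29.2%, 26.9% and 13.7% of all genes with 2 spots.

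Short genes were common in the set, with a median gene span of 475.5 bases in the RefSeq annotation (assembly R64), against 1257 for all 5578 genes with a length. They run between 180 bases (COX9 and ATP18) and 1923 bases (SDH1) and lie on 14 chromosomes. Ratio and log2 span had Pearson's r of -0.030 on replicate 1 (40 members), 0.104 on replicate 3 (18) and -0.370 on replicate 4 (20), against -0.139, -0.028 and -0.034 over all genes. These points share an array and are given as description.

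Other genes of the pathway were grouped in 7 lists, chosen with earlier results of these data known. On replicates 1, 3 and 4, the medians of 2 of the 7 lists kept to 1 side of the array median. The citric acid cycle lay below it and protein import above it, with the medians on replicate 4 close to 0. List means did not keep to these sides. They were 0.21 and 0.41 for the citric acid cycle on replicates 1 and 4, and -0.31 for protein import on replicate 4. On replicate 2 the medians of these 2 lists were -2.32 and 1.33 as deposited (2 genes each), and turning places each on the opposite side. On replicates 1, 3 and 4 the medians of the citric acid cycle genes were -0.37, -2.05 and -0.086 (11, 4 and 6 genes), those of the complex IV assembly genes 0.26, 0.055 and -0.13 (21, 11 and 13 genes) and those of the protein import genes 0.90, 0.99 and 0.079 (20, 11 and 9 genes). Assembly genes of complex III had -0.75, 1.52 and -1.21 (10, 2 and 3 genes) and those of ATP synthase -0.51, 1.52 and 0.54 (8, 5 and 3 genes). Respiratory regulators had -0.076, -0.52 and 1.24 (10, 7 and 5 genes), and other carriers and porins 0.091, -0.58 and 0.59 (13, 8 and 8 genes). Limma called 0 genes of these lists in the tests above, as it called 0 genes in all.

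Single genes of these lists behaved as unevenly as the members. Those named here were picked for the largest absolute mean over replicates 1, 3 and 4, so large values are favoured. POR1 (YNL055C), the outer-membrane porin gene, had 3.50, 1.09 and 1.76 on replicates 1, 3 and 4, above the median on each, and 2.90 on replicate 2, below it once turned. TOM22 (YNL131W), a protein import receptor gene, had 0.46, 2.75 and 0.10, also above on each. HAP1 (YLR256W), a heme-responsive transcription factor gene, had 2.38, -0.52 and 1.24, and ROX1 (YPR065W), a repressor of hypoxic genes, 0.25, -0.25 and 1.41. GGC1 (YDL198C), a GTP/GDP carrier gene, had 1.03, -0.78 and 0.50, and TIM12 (YBR091C), of the import machinery, -0.76, 1.996 and 0.37. The translational activator genes PET111 (YMR257C) and PET494 (YNR045W), which serve mitochondrial mRNAs of complex IV, had 0.73, 2.22 and -9.39, and -0.79, 1.10 and -0.38. IDP1 (YDL066W), the mitochondrial NADP-dependent isocitrate dehydrogenase gene, had 1.60, -4.62 and 1.20.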

How the data were processed

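RNA from 2 precipitations was hybridised to each of 4 two-channel arrays. The values are the authors' deposited log10 ratios of the channels, as the value tables give them. Base 10 was read from the values, because undoing a base 10 log gave a ratio of whole numbers, the lower at most 50 (tolerance 2e-08), for 0.259% to 15.5% of spots, against 0% to 0.152% with base 2. The labels do not state the dyes, scanner settings, background correction or normalization.

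Ratios were converted to log2, spots of a gene averaged, and each array centred on its gene median, with no loess or quantile step. Symbols came from the platform annotation, checked by gene identifier against RefSeq (R64), with 0 updates. All 46 members matched the first platform and 43 the second.

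The test was limma 3.58.1 (R 4.3.3; lmFit and eBayes with an intercept, Benjamini-Hochberg over all genes, threshold 0.05) on genes with a value on replicates 2, 3 and 4, with replicate 2 turned. The procedure was tested on simulated data. Class medians were given no test. Replicates were numbered in accession order, which only names them. Members, classes and lists were chosen with earlier results of these data known. The rule for named genes took every member on 3 or more arrays and each class's highest and lowest member on replicate 1. Among genes of a list with a value on replicates 1, 3 and 4, it took up to 2 with the largest absolute mean. Of the lists, 1 had 1 gene with a value on these arrays and 2 had 0. The other members named were chosen after their values were seen, as was the grouping of ATP synthase and complex III genes by position. The number of arrays limits the precision.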

Additional observations from a re-analysis of the deposited data

How the results depend on the processing

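No genes and no members were called by limma under any of 12 alternatives (the sign of replicate 2, centring, arrays required, scaling, quantile normalization, runs of spots, other sets of arrays, each array left out, and, chosen after seeing the data, genes with disagreeing spots left out), so both counts were 0 in each. The mean of ATP2 stayed above 0, between 0.29 (replicate 2 as deposited) and 1.84 (replicates 1, 3 and 4), and leaving out 1 array gave 0.98 to 1.38. The mean of COX9, -0.053, turned to 0.063 with replicate 2 as deposited, 0.54 with no centring, 0.32 with runs of spots centred and 0.0070 without replicate 2, and leaving out 1 array gave -0.13 to 0.0070. The cause was not tested.

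Averaged over replicates 1, 3 and 4, class medians were -0.28 for the dehydrogenases, 0.34 for complex III and 0.46 for cytochrome c. They were 0.84 for complex IV, 0.44 for ATP synthase and 0.19 for all members. The carriers, with no value on replicate 3, had 1.65 over replicates 1 and 4. Adding replicate 2 turned gave -0.18 for cytochrome c, 0.043 for the carriers, 0.16 for complex III and 0.068 for all members. Adding it as deposited gave 0.0077 for ATP synthase, 0.13 for complex IV and 0.87 for cytochrome c. With no centring, which leaves the array medians in, they were 1.02 for all members, 0.55 for the dehydrogenases, 1.16 for complex III, 1.29 for cytochrome c and 1.26 for ATP synthase. With only members on all 3 arrays, the dehydrogenases had 0.80 (NDE2 alone), complex III -0.045 (CYT1 alone) and complex IV -0.19 (COX9 alone), while no carrier gene gave a value. With means in place of medians the dehydrogenases had -0.013. Leaving out 1 array gave -0.36 to -0.23 for the dehydrogenases, 0.18 to 0.52 for complex III, 0.046 to 0.84 for cytochrome c, 0.49 to 1.34 for complex IV, 0.18 to 0.81 for ATP synthase, -0.058 to 3.35 for the carriers and -0.049 to 0.36 for all members, so the sign of the last value rests on replicate 1 (-0.049 without it). The carriers also rest on replicate 1 (-0.058 without it), and both ends of their range come from 1 array each.

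With runs of 400 spots centred, 5 of 40, 1 of 8, 4 of 18 and 6 of 20 members changed sides on replicates 1 to 4 (12.5%, 12.5%, 22.2% and 30%), against 13.0%, 19.8%, 23.2% and 14.5% of all genes. The members at 2-fold or more above the median then numbered 17, 2, 3 and 5 (42.5%, 25%, 16.7% and 25%), against 25.5%, 22.9%, 18.8% and 18.7% of all genes. The differences of the dehydrogenases from complex III, complex IV and ATP synthase were then -0.51 ± 0.58, -1.03 ± 0.66 and -1.06 ± 0.74 (mean ± SD, n = 3 arrays). The difference from complex III was thus smaller than its SD, and it was -0.018 on replicate 4. No paired analysis was possible because the arrays form 1 group and their numbers only name them.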
